A study of Mus musculus with 4 samples.

Results

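Ptgs1, Ptgs2, Ptges, Ptges2, Ptges3, Hpgd, Pla2g4a, Ptger1, Ptger2 and Ptger4, the genes that make, break down and sense prostaglandin E2, were compared between control and Ldha-knockdown cells. Of these 10 genes, 8 were measured, because the platform's probe table held a probe set with exactly that symbol for them and none for Ptgs1 and Ptger1. They are 8 of the 22180 genes tested. The cells were 4T1, a mouse mammary carcinoma line derived from a BALB/c mouse, cultured for 24 hours in complete medium. The control group (scramble, 2 arrays) carried a hairpin RNA of scrambled sequence. The knockdown group (shLDHA, 2 arrays) carried a hairpin against Ldha, the gene of lactate dehydrogenase A, and was a mixture of cells that had survived puromycin at 10 µg/ml. Puromycin is named for the knockdown cells only, so selection and knockdown cannot be told apart. No label names separate cultures behind the 2 replicates of a group, and the p-values therefore reflect array-to-array spread that may be technical.

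Prostaglandin E2 begins as arachidonic acid, which the cytosolic phospholipase A2 encoded by Pla2g4a cuts from membrane lipids. The cyclooxygenases COX-1 (Ptgs1, present in most tissues) and COX-2 (Ptgs2, induced by cytokines and growth factors) oxidise it to prostaglandin H2, and prostaglandin E synthases (Ptges, Ptges2, Ptges3) turn this into prostaglandin E2. The dehydrogenase encoded by Hpgd inactivates the product, and the receptors EP1 (Ptger1), EP2 (Ptger2) and EP4 (Ptger4) sense it; EP2 and EP4 raise cyclic AMP. Mammary tumours often make prostaglandin E2, which acts on the tumour cells and dampens immune cells.

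The upstream sequences of 3 genes are shown because they belong to the gene that passed the test, to the phospholipase gene beside it on the chromosome, and to the inducible synthase that works with COX-2. Each is the 250 bases before the first start that RefSeq lists, 5′ to 3′ on the gene's strand, from the GRCm38.p6 reference and not from 4T1 DNA. The windows are chr1:150099781-150100030 (plus strand) for Ptgs2, chr1:149961291-149961540 (minus strand) for Pla2g4a and chr2:30903298-30903547 (minus strand) for Ptges. Capitals mark the palindrome TTGCGCAA, a binding sequence of C/EBP factors, in Ptgs2, and the GC boxes GGGCGG in Ptges. None of the 9 motifs searched was found in the Pla2g4a sequence, which opens with a run of ac repeats.
Ptgs2: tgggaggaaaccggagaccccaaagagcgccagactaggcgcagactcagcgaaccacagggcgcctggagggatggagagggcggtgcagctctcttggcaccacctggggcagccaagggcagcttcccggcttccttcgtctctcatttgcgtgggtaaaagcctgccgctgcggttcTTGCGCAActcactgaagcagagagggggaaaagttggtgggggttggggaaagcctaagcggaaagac
Pla2g4a: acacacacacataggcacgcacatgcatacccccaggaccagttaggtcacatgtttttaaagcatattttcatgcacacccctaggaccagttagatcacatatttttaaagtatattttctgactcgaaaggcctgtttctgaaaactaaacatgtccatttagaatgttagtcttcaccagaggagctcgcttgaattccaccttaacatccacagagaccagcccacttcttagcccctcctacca
Ptges: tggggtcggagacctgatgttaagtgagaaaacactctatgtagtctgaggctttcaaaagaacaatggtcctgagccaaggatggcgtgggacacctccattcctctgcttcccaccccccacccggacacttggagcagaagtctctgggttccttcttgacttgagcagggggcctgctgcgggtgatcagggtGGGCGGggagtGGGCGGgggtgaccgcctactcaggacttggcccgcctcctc

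The same 250 bases were searched on both strands in the 9 of 10 genes with an entry and in all 32851 RefSeq promoters of the table. Among the 9, TTGCGCAA was found in Ptgs2 alone, at bases -69 to -62 from its start, and 0.164% of all promoters hold it. GGGCGG was found in 5 of 9 (Ptgs2, Ptges, Ptges3, Hpgd and Ptger4), against 32.7% of all promoters, and GGAAA, the core of many NF-kB sites, in 6 of 9, against 55.6%. CCAAT was found in Ptger2 and Ptger4 (33.8% of all promoters), and CACGTG, which contains ACGTG, in Ptges2 (6.02%, and 16.6% for ACGTG). The TATA box TATAAA (12.4% of all promoters), the cyclic AMP response element core TGACG (17.8%) and the Egr site GCGTGGGCG (0.536%) were found in none of the 9. In Ptgs2, TGACG on the minus strand and CACGTG lay after the annotated start instead, at bases 14 to 18 and 17 to 22, where they overlap; that stretch was searched after the first window had been read. These are matches of letters in the reference and not measured binding.

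The 4 arrays had medians of 3.87 to 3.90 on the log2 scale. Ldha, the targeted gene, read 6.69 and 6.96 in scramble and 6.31 and 6.15 in shLDHA (log2 change -0.59, SE 0.12, limma adjusted p = 0.0390). It passed in 8 of 13 alternative settings and in 1 of 4 fits without an array. As a mark of dim signal, 95% of 1088 olfactory receptor genes had a mean level below 4.16. All 9 measured mammary epithelial markers lay above it, against 2 of 15 leukocyte (Cd68 and Cd14), 2 of 10 fibroblast (Pdgfra and Acta2) and 0 of 8 endothelial markers. The pan-leukocyte gene Ptprc read 2.58 to 2.80 over the 4 arrays. The mean level of the leukocyte markers was 3.39 to 3.43 over the 4 arrays, and that of the epithelial markers 8.13 to 8.23. Among leukocyte markers Cd68 alone passed, and it fell (log2 change -0.91). Itgax and Adgre1 had the next smallest p-values. Their log2 changes were 0.25 and 0.26 (limma adjusted p = 0.155 and 0.195), with all values below 4.16. Among epithelial markers Cldn7 fell (-1.06) while Krt14, Epcam and Krt8 rose (0.80, 0.53 and 0.47). Krt14 read 3.88 and 3.92 in scramble, below 4.16, and 4.54 and 4.86 in shLDHA. Epcam and Krt8 lost the call in all 4 fits without an array. The part of these marker changes in the results below was not tested.

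Of the 8 measured prostaglandin genes, Ptgs2 fell in the knockdown and the other 7 did not pass. The threshold was an adjusted p (Benjamini-Hochberg, over all genes) under 0.05 in limma. Over all genes, 6.36% passed, 2.99% of all genes lower and 3.37% higher in shLDHA. The arrays of the groups did not overlap for 6 of the 8, all lower in shLDHA, where 24.0% of all genes were separated in that direction and 26.2% in the other. Unadjusted p-values under 0.05 were found for 4 of the 8, all lower; over all genes 10.2% had such a p and were lower, and 21.5% had such a p in either direction. Ptges3 and Ptger2 overlapped. The median log2 change of the 8, which were chosen with earlier results of these data known, was -0.25, against 0.01 over all genes. Leaving out an array lowered the count of genes that passed from 1410 to 636 (scramble replicate 1), 626 (scramble replicate 2), 416 (shLDHA replicate 1) or 370 (shLDHA replicate 2).

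**Figure D1:**
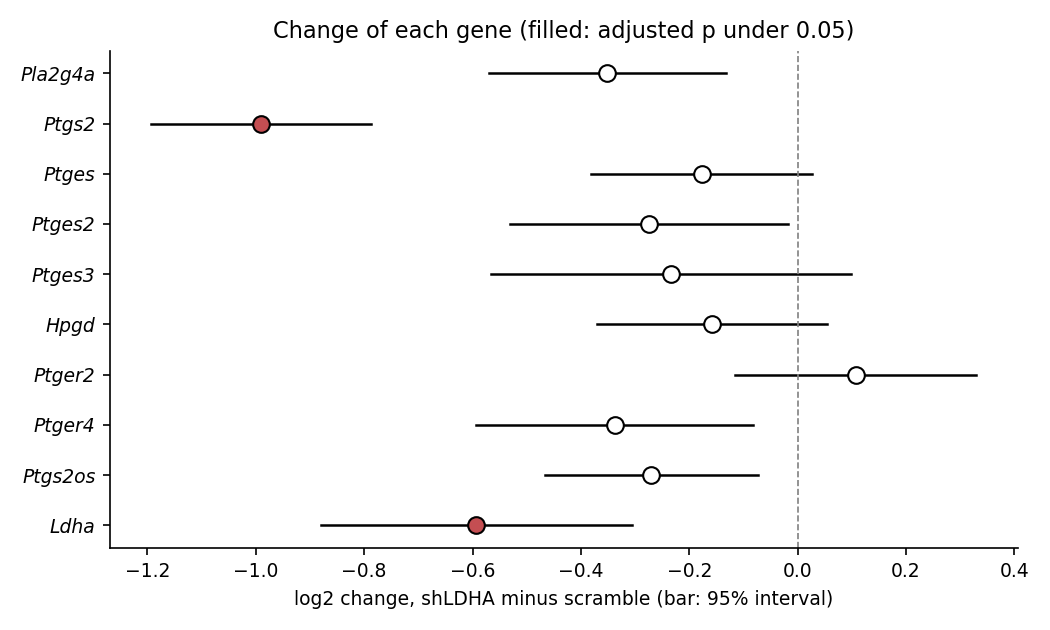
Log2 change (shLDHA minus scramble) of the 8 measured genes, of Ptgs2os and of Ldha, with 95% intervals from limma; filled points have an adjusted p under 0.05. Ptgs2 lies at -0.99 and Ldha at -0.59, and of the prostaglandin genes Ptger2 alone has a point above 0.

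Pla2g4a, which encodes the phospholipase that releases arachidonic acid, read 10.36 and 10.21 in scramble and 9.93 and 9.94 in shLDHA. Both shLDHA arrays were lower than both scramble arrays, with a scramble mean of 10.29 ± 0.11 (SD, n = 2) and a shLDHA mean of 9.94 ± 0.01 (SD, n = 2). The log2 change was -0.35 (SE 0.09, 95% interval -0.57 to -0.13), which leaves 78.4% of the scramble level, and the limma adjusted p was 0.0805. The call depended on the setting. The 2 settings in which Pla2g4a passed also raised the count of all genes that passed, from 1410 to 2806 and 2783. Pla2g4a passed when limma's variance followed the mean level (adjusted p = 0.00323) and when only genes at or above the median level were tested (0.0218), and its adjusted p over 13 settings ran from 0.00323 to 0.310.

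Ptgs2, which encodes the inducible cyclooxygenase COX-2, read 11.64 and 11.71 in scramble and 10.65 and 10.71 in shLDHA. The groups stood far apart, with means of 11.67 ± 0.05 (SD, n = 2) and 10.68 ± 0.04 (SD, n = 2). Ptgs2 thus fell 1.99-fold (log2 change -0.99, SE 0.08, 95% interval -1.19 to -0.79), to 50.3% of the scramble level (43.7 to 57.9%). The limma adjusted p was 0.00269. Counted from the most negative log2 change, Ptgs2 ranked 102 of 22180 genes. Ptgs2 passed in 13 of 13 alternative settings and in 4 of 4 fits without an array, with log2 changes between -1.02 and -0.96; the adjusted p was closest to the threshold with every probe set tested (0.0489). The knockdown cells were a mixture measured in bulk, so fewer cells with the transcript and less transcript per cell cannot be told apart.

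**Figure D2:**
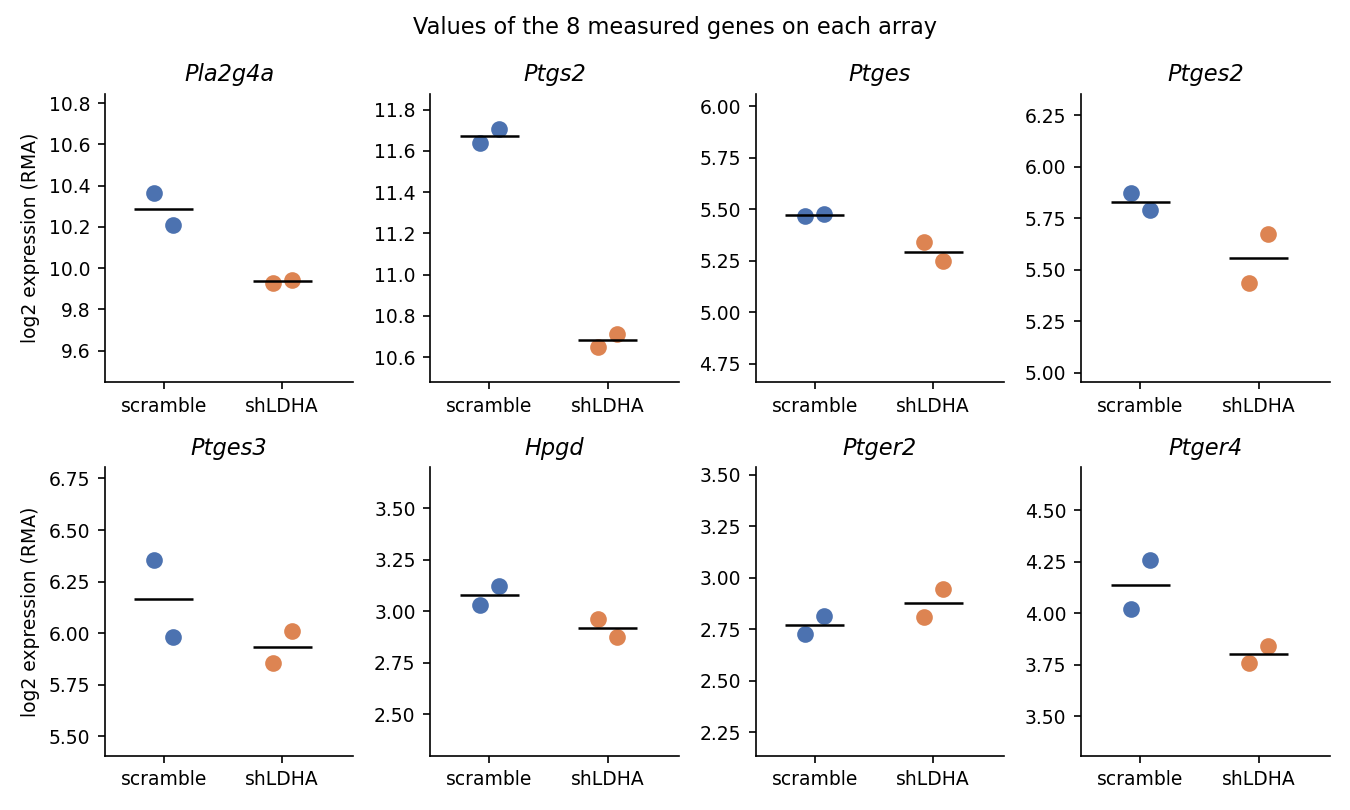
Log2 expression of the 8 measured genes on each of the 4 arrays (points) with the group mean (line); every panel spans 1.4 log2 units, so distances can be compared between panels. For Ptgs2 the scramble arrays at 11.64 and 11.71 stand clear of the shLDHA arrays at 10.65 and 10.71, while for Ptges3 and Ptger2 the groups overlap.

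The 95% interval of the Ptgs2 change did not overlap that of Pla2g4a or of Ptges. Within an array, the log2 value of Ptgs2 minus that of Pla2g4a was 1.28 and 1.50 in scramble and 0.72 and 0.77 in shLDHA, a shift of -0.64. Against Ptges, the corresponding shift was -0.81. With 2 arrays per group an exact two-sided permutation test cannot go below p = 0.333, which is what both shifts gave, so that test could not show the shifts to differ from 0.

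The prostaglandin E synthases were each lower in mean and none passed. Ptges encodes the inducible microsomal synthase that is often induced together with COX-2. It read 5.47 and 5.48 in scramble and 5.34 and 5.25 in shLDHA, so the groups were separated by a small step (log2 change -0.18, SE 0.08, adjusted p = 0.300). The 95% interval of its change was -0.38 to 0.03. Ptges2, which encodes a second membrane-associated synthase, read 5.87 and 5.79 in scramble and 5.44 and 5.68 in shLDHA (log2 change -0.27, SE 0.11, adjusted p = 0.203). The shLDHA arrays differed from each other by nearly as much as the group means did. Ptges3, which encodes the cytosolic synthase and Hsp90 co-chaperone p23, read 6.35 and 5.98 in scramble and 5.86 and 6.01 in shLDHA (log2 change -0.23, SE 0.14, adjusted p = 0.405). The scramble arrays of Ptges3 stood apart from each other, and without scramble replicate 1 its log2 change was -0.05. A further 2 probe sets list Ptges3 together with another symbol and were left out.

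Hpgd, whose enzyme begins the breakdown of prostaglandin E2, read 3.03 and 3.12 in scramble and 2.96 and 2.88 in shLDHA. The groups did not overlap, but the step was small (log2 change -0.16, SE 0.09, 95% interval -0.37 to 0.05, adjusted p = 0.374). All 4 values lay below 4.16, within the range of the olfactory receptor genes, where array signals are compressed and a fold may understate a change.

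Of the receptors, Ptger4, the gene of EP4, read 4.02 and 4.26 in scramble and 3.76 and 3.84 in shLDHA, with no overlap (log2 change -0.34, SE 0.11, 95% interval -0.59 to -0.08, adjusted p = 0.128). Its scramble mean of 4.14 ± 0.17 (SD, n = 2) was just under 4.16. Ptger2, the gene of EP2, read 2.73 and 2.82 in scramble and 2.81 and 2.95 in shLDHA. These values overlapped, and Ptger2 alone of the 8 had a positive log2 change (0.11, SE 0.09, adjusted p = 0.591), with all 4 values below 4.16.

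**Figure D3:**
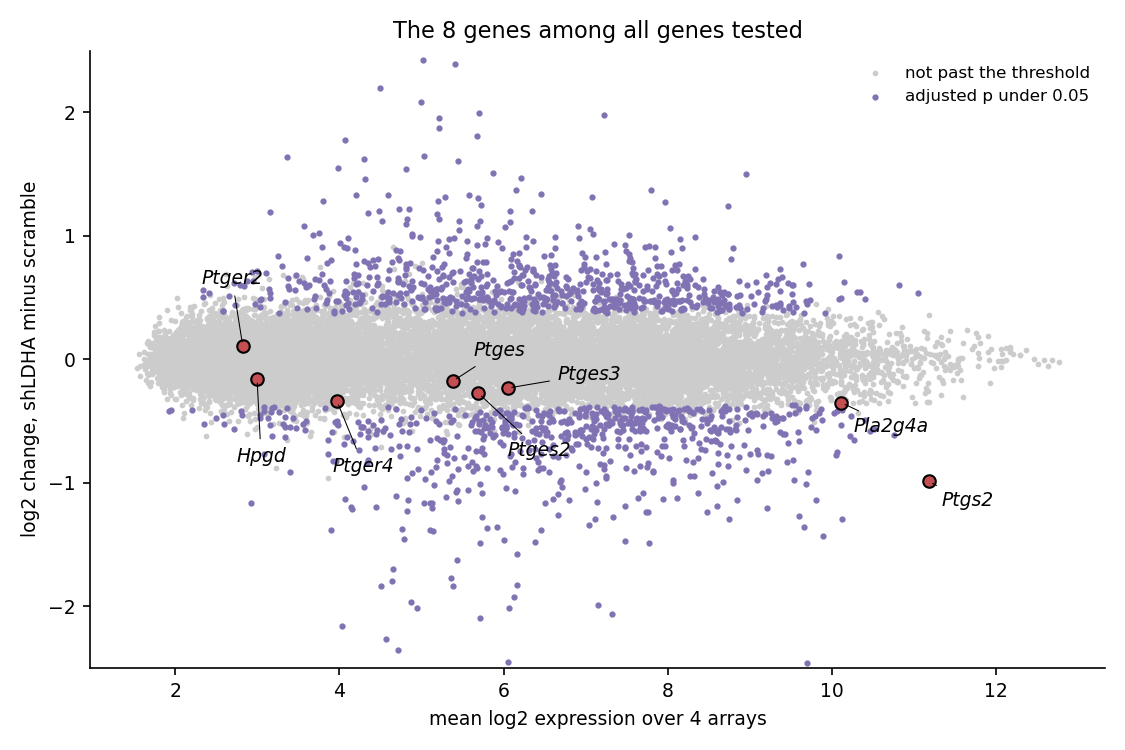
Log2 change (shLDHA minus scramble) against mean log2 expression over 4 arrays for all genes tested, with genes past the threshold in purple and the 8 prostaglandin genes as red points; 9 genes lie beyond the vertical limits of 2.5. Ptgs2 sits at the bright end, below the cloud, and the other 7 lie in or at the edge of the grey band of genes that did not pass.

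Ptgs2, Ptgs2os and Pla2g4a are consecutive among the measured genes of mouse chromosome 1. Ptgs2os is a long noncoding RNA transcribed away from Ptgs2 on the opposite strand, and 156 bases separate the 2 starts in GRCm38.p6, so the Ptgs2 sequence printed above also holds the start region of Ptgs2os. The palindrome TTGCGCAA lies between the 2 starts, at bases -95 to -88 from that of Ptgs2os, and is thus not particular to Ptgs2. Ptgs2os read 6.90 and 6.86 in scramble and 6.59 and 6.63 in shLDHA, without overlap (log2 change -0.27, SE 0.08, adjusted p = 0.118). It was lower in mean like Ptgs2, but did not pass. The nearest measured gene on the other side, Pdc, which encodes the retinal protein phosducin, had a log2 change of 0.27 (SE 0.11, adjusted p = 0.231). Of the 12 measured genes nearest to Ptgs2, 6 on each side, 0 passed limma's test, and 4 had an unadjusted p under 0.05, where 21.5% of all genes did.

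**Figure D4:**
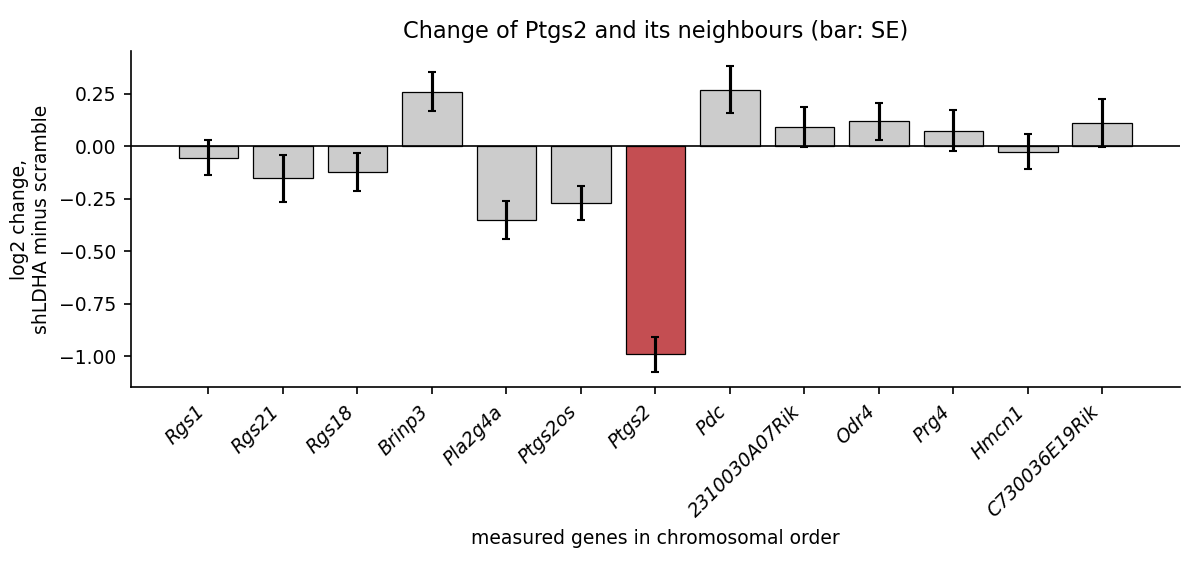
Log2 change (shLDHA minus scramble) of Ptgs2 and of the 6 measured genes on each side of it, in chromosomal order and not to distance; error bars are the SE from limma, and red marks an adjusted p under 0.05. Ptgs2 reaches -0.99, Ptgs2os and Pla2g4a beside it stand at -0.27 and -0.35, and the rest lie between -0.15 and 0.27.

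Each gene was set to 0 at its scramble mean, and predicted genes and clone names were passed over. The genes whose values over the 4 arrays then lay closest to those of Ptgs2 were Myo5b, Tmem40 and Ptpn22. Their root mean square differences from Ptgs2 were 0.02, 0.03 and 0.04 on the log2 scale over 4 arrays. Myo5b encodes an unconventional myosin of vesicle transport, Tmem40 a membrane protein, and Ptpn22 a tyrosine phosphatase best known from lymphocytes. Myo5b read 5.51 and 5.54 in scramble and 4.51 and 4.59 in shLDHA, a log2 change of -0.97. Tmem40 changed by -0.97 and Ptpn22 by -1.01. With 4 arrays in 2 groups, this likeness is a description of falls of similar size.

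In the rest of the eicosanoid pathway, 4 of 72 measured genes over 6 lists passed, 3 lower and 1 higher, a share of 5.56% and near the 6.36% of all genes. Of 25 other genes of phospholipases A2 and arachidonate release, 1 rose and 0 fell (median log2 change 0.09). The gene that rose was Pla2g4c, which encodes another cytosolic phospholipase A2, from 2.73 and 2.87 to 3.21 and 3.34 (log2 change 0.48, SE 0.10, adjusted p = 0.0379), all below 4.16, and it lost the call in all 4 fits without an array. Dagla, which encodes a diacylglycerol lipase, and Abhd6, which encodes a monoacylglycerol lipase, were next, with log2 changes of -0.37 (adjusted p = 0.0517) and 0.40 (0.0541). Of 10 genes that make arachidonate or return it to lipids, 1 fell and 0 rose (median 0.09). This was Acsl6, the gene of a long-chain acyl-CoA synthetase, which read 5.64 and 5.55 in scramble and 4.78 and 5.07 in shLDHA (log2 change -0.67, SE 0.12, adjusted p = 0.0241). Acsl6 passed in 9 of 13 settings and in 1 of 4 fits without an array. Fads2, the gene of the delta-6 desaturase, had a log2 change of 0.29 (adjusted p = 0.0994) and Lpcat3, the gene of a lysophospholipid acyltransferase, one of -0.24 (0.166).

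Among 10 other prostanoid synthase genes 0 passed limma's test and 2 had an unadjusted p under 0.05, near the 21.5% of all genes (median -0.02). The smallest p-values belonged to the aldo-keto reductase gene Akr1b8 (log2 change -0.45, adjusted p = 0.0693), the prostacyclin synthase gene Ptgis (0.25, 0.178) and the carbonyl reductase gene Cbr2 (0.18, 0.377). Of 8 genes of prostaglandin breakdown and transport, 1 fell and 0 rose (median -0.0026). Abcc4, which encodes an exporter of prostaglandins and cyclic nucleotides, read 7.72 and 7.70 in scramble and 7.22 and 7.02 in shLDHA, with no overlap (log2 change -0.59, SE 0.10, adjusted p = 0.0212). Abcc4 passed in 9 of 13 settings and in 1 of 4 fits without an array. Ptgr2, the gene of a prostaglandin reductase, had a log2 change of 0.35 (adjusted p = 0.0678), and Slco3a1, which encodes an organic anion transporter, one of -0.20 (0.325). The list of other prostanoid receptors held 6 measured genes, among them Ptgfrn, which encodes not a receptor but a negative regulator of the prostaglandin F2 alpha receptor. Of the 6, 0 passed limma's test (median 0.01) and 1 had an unadjusted p under 0.05, against 21.5% of all genes. This was Ptger3, the gene of EP3 (log2 change -0.32, adjusted p = 0.205), followed by Ptgfrn (0.14) and Ptgdr, the gene of a prostaglandin D2 receptor (-0.17).

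The lipoxygenase and leukotriene genes, which use the same fatty acid, gave 1 fall and 0 rises among 14 (median -0.03). Aloxe3, which encodes an epidermal hydroperoxide isomerase of the lipoxygenase family, read 5.71 and 5.76 in scramble and 4.48 and 4.57 in shLDHA (log2 change -1.21, SE 0.09, adjusted p = 0.00155). Ltc4s, the gene of leukotriene C4 synthase, had a log2 change of 0.33 (adjusted p = 0.0767) and Alox5ap, the gene of the 5-lipoxygenase activating protein, one of -0.22 (0.220). Of 28 genes of cyclic AMP signalling, into which EP2 and EP4 feed, 2 fell and 0 rose (median -0.01), where 2.99% of all genes were lower and 3.37% higher. They were Crem, which encodes a cyclic AMP-responsive transcription factor (log2 change -0.52, SE 0.11, adjusted p = 0.0418), and Pde4b, which encodes a cyclic AMP phosphodiesterase (-0.39, SE 0.08, 0.0453). Crem passed in 7 of 13 settings and Pde4b in 5 of 12, and neither passed in any of the 4 fits without an array. Prkacb, a catalytic subunit gene of protein kinase A, was next (-0.38, adjusted p = 0.0562). The values of Pde4b all lay below 4.16.

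**Figure D5:**
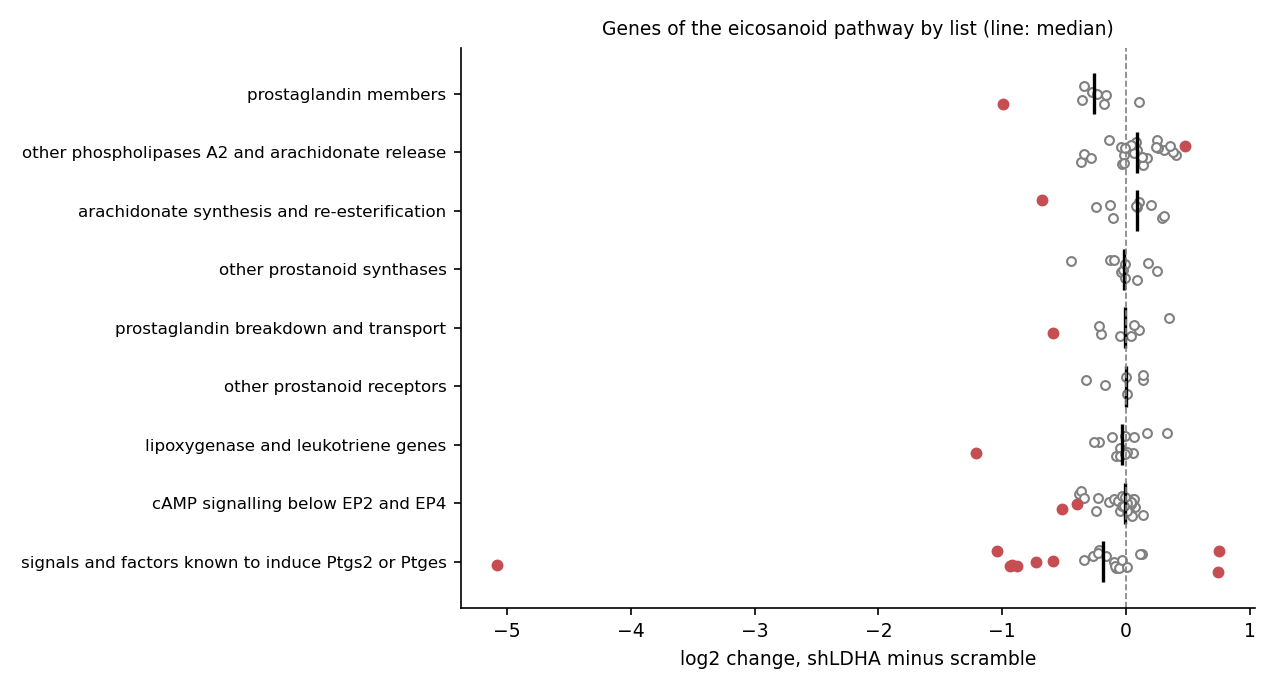
Log2 change (shLDHA minus scramble) of each measured gene of the prostaglandin set and of 8 further lists, with list medians as lines and genes with an adjusted p under 0.05 in red. Most lists centre near 0, while the prostaglandin genes, chosen with earlier results of these data known, have a median of -0.25. Of these genes Ptgs2 alone passed. The signals and factors for Ptgs2 or Ptges, most of them inducers, have a median of -0.19, with Il1a at -5.08.

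Signals and factors known to regulate Ptgs2 or Ptges, most of them inducers, moved in both directions. Of 22 genes, 7 were lower, 2 higher and 13 not past the threshold (median log2 change -0.19, against 0.01 over all genes). Over all genes 2.99% were lower and 3.37% higher; the list was chosen with earlier results of these data known. Il1a, the gene of the cytokine interleukin 1 alpha, which induces Ptgs2 in many cells, fell from 10.74 and 10.64 to 5.63 and 5.58 (log2 change -5.08, SE 0.09). Among the transcription factor genes, Cebpd, of the C/EBP family that binds the palindrome shown for Ptgs2, read 4.82 and 4.82 in scramble and 3.78 and 3.79 in shLDHA (log2 change -1.04, SE 0.08, adjusted p = 0.00195). Both shLDHA values of Cebpd lay below 4.16. Jun changed by -0.92, the NF-kB subunit gene Relb by -0.93 and Egr1, whose product is known to activate Ptges, by -0.88. The other falls were Il1rap, the gene of the interleukin 1 receptor accessory protein (-0.72), and the cytokine gene Tnf (-0.59). Il1r1, the gene of the interleukin 1 receptor itself, rose by 0.75 and Fos by 0.75. Il1a and Cebpd passed in 13 of 13 settings. Jun, Relb and Egr1 passed in 12, losing the call with every probe set tested, Il1r1 in 11, Il1rap in 10 and Fos in 9 of 13, and Tnf in 8 of 12. Fos and Tnf each passed in 1 of 4 fits without an array. For Il1rap the mean of its probe sets did not pass. Cebpb (-0.09, adjusted p = 0.802), Rela (-0.27, 0.136) and Il1b (0.01, 0.973) did not pass. The Il1b values, 3.02 to 3.35, all lay below 4.16. Whether any of these changes bears on Ptgs2 was not tested, and prostaglandin E2 itself was not measured in the values used here.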

How the data were processed

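RNA of 4 samples of 4T1 cells, 2 scramble and 2 shLDHA, was measured on whole-transcript Affymetrix arrays from 400 ng of total RNA, per the labels' protocols. Values are log2 expression as deposited by the authors; the submitters' processing notes name RMA and R 3.4.0, and the annotation version was not given in the sources used here. Of 41345 probe sets, 23521 had exactly 1 gene symbol in the platform's probe table, 1814 several and 16010 none. The first kind entered, and the probe set with the highest mean was kept for genes with more than 1. No dim gene was removed. The 22180 genes were fitted with limma 3.58.1 in R 4.3.3 (lmFit, eBayes, no covariate, two-sided, Benjamini-Hochberg over all genes, threshold 0.05), with 2 residual and 4.52 prior degrees of freedom. Intervals are 95% intervals of that fit. Adjusted p-values come from this fit unless a setting is named. The 13 alternative settings are those of the closing section at this threshold, each array left out counted as 1; a gene outside a filter has fewer. The number of arrays limits the precision. Groups and replicate numbers came from the sample titles.

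The prostaglandin genes and the lists of other genes were chosen with earlier results of these data known. Named were all members, Ldha, the 3 genes nearest to Ptgs2 (predicted genes and clone names passed over) and its nearest measured neighbours. From each list came up to 6 genes past the threshold and, where fewer passed, the smallest p-values up to 3. The rule of the smallest p-values was not applied to the fibroblast and endothelial markers. Il1r1, Tnf, Fos, Cebpb, Rela, Il1b, Cd14, Ptprc, Pdgfra and Acta2 were added after their values were seen. Of 10 fibroblast and 8 endothelial markers, 0 passed limma's test, and 1 and 0 had an unadjusted p under 0.05. An older symbol was matched for 2 list genes. The code was tested on simulated data, in 10 runs with 200 changed genes among 22180. It recovered 5% of them at a log2 change of 0.5 and 89.7% at a log2 change of 1. The simulation held fewer changed genes than the 1410 that passed in the data, so these shares may not hold for the data. A gene that did not pass may still have changed by a smaller amount. Figures were drawn with matplotlib 3.10.9.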

Additional observations from a re-analysis of the deposited data

How the results depend on the processing

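Each of the 8 prostaglandin genes kept the direction of its change in every setting in which it was tested. The count of the 8 past the threshold was 2 instead of 1, with Pla2g4a added to Ptgs2, at an adjusted p under 0.1. It was also 2 with eBayes following a trend, and among genes at or above the median level (5 of the 8). It was 1 without each array in turn. The count over all genes was 1410 (6.36%). Each setting that added Pla2g4a also raised this count, so the added call is not particular to the 8. The count over all genes was 2783 at or above the median level, from fewer tested genes, and 2806 with the trend. It was 2391 at an adjusted p under 0.1 and 128 (0.310%) with every one of 41345 probe sets tested. Without 1 array it ran from 370 (shLDHA replicate 2) to 636 (scramble replicate 1), in fits where the lone array of a group is assumed to vary like the other group. With the replicate number as a block, 838 genes passed, and Ptgs2 kept its call (adjusted p = 0.00927). The deviations of same-numbered arrays correlated at -0.03, so no effect shared by same-numbered arrays was seen. This does not settle whether those arrays were handled together. A filter on dim genes dropped Hpgd, Ptger2 and Ptger4, which leaves 5 of the 8 at or above the median level. The settings not named here, quantile normalization applied again, arrays centred on their medians, the mean of a gene's probe sets, robust eBayes and a filter above the 25th percentile, left both counts within 1.5 times. Mean levels below 4.16 limit what can be said of Hpgd, Ptger2 and Ptger4. The same limit holds for list genes such as Pla2g4c, Pde4b, Tnf and Il1b.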
